A study of Mus musculus with 21 samples.

Results

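The genes described here are 8 genes of cholesterol synthesis and its sterol control: Hmgcs1, Idi1, Fdps, Fdft1, Sqle and Dhcr7, which encode enzymes, Srebf2, which encodes the transcription factor SREBP-2, and Insig1, which encodes a sterol-dependent brake on that factor. They were chosen by name, and all 8 of 8 were found among the 54532 genes of the deposited count table. The receptors that take up lipoprotein cholesterol are not among them, and were measured from a separate list. RNA was sequenced from c-kit+ bone marrow cells of C57BL/6 mice, enriched on CD117 beads after lysis of red cells, so the material is a mixture of blood progenitors and not a pure cell type. The 4 genotypes were WT (n = 3 libraries), Asxl1-/- (n = 2, titled AV), Jak2V617F (n = 3) and Asxl1-/-Jak2V617F (n = 3). Asxl1 encodes a chromatin regulator, while Jak2V617F is an overactive mutant of the cytokine receptor kinase Jak2 that drives myeloproliferative neoplasms. No treatment is named in the labels, and the age of the mice, the promoter or Cre behind each allele, and whether each library is a separate animal, are not stated in the sources used here. The p-values therefore measure the spread between these libraries, which may be partly technical.

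Cholesterol is built from acetyl-CoA. Hmgcs1 makes HMG-CoA, from which mevalonate is formed. Idi1 and Fdps carry the isoprenoid units to farnesyl diphosphate, Fdft1 joins them to squalene, Sqle oxidises squalene, and Dhcr7 performs the closing reduction of the branch through 7-dehydrocholesterol. When membranes run low in sterol, SREBP-2 is escorted from the endoplasmic reticulum by Scap, cleaved, and moves to the nucleus, where it raises these enzymes together with genes of lipoprotein uptake. Insig proteins hold Scap back when sterol is plentiful. In marrow, dividing progenitors need sterol for new membrane, and cholesterol handling of stem and myeloid cells is known to bear on their output.

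SREBP-2 binds sterol regulatory elements near the starts of its targets, often beside CCAAT boxes (bound by NF-Y) and GC boxes (bound by Sp1). RefSeq promoter windows (GRCm38.p6, from 250 bases before to 50 bases after each start) were at hand for 5 of the 8 genes, Hmgcs1, Idi1, Dhcr7, Srebf2 and Insig1. Both strands were searched for TCACNCCAC (a sterol element type), CCAAT and GGGCGG. Idi1 rose in Jak2V617F against WT, whereas Hmgcs1 and Srebf2 fell and Insig1 did not pass. The 4 stretches below belong to these genes, textbook parts of the same circuit that had 1 window each. Each lies on the plus strand before both the RefSeq start and the gene start in the deposited table, is written 5′ to 3′, and has matches in capitals.
Hmgcs1, chr13:119690101-119690350: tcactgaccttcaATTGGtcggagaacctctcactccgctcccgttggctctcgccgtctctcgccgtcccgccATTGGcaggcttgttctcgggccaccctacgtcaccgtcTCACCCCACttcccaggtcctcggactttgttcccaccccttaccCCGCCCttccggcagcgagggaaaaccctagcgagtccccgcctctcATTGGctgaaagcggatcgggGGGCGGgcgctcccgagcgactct
Idi1, chr13:8885356-8885500: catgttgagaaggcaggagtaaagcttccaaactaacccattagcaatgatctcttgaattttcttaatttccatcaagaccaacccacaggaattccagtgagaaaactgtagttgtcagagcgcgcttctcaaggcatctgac
Srebf2, chr15:82147019-82147180: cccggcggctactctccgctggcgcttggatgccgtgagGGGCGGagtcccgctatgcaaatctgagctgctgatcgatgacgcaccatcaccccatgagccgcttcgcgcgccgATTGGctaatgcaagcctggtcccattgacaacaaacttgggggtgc
Insig1, chr5:28071162-28071362: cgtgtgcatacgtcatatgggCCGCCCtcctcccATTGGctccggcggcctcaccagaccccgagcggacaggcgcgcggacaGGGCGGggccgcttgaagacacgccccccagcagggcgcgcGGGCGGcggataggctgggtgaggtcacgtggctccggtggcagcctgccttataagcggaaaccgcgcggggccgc
The printed Hmgcs1 stretch held 1 TCACNCCAC match, 3 CCAAT boxes and 2 GC boxes, the Srebf2 stretch 1 CCAAT box and 1 GC box, and the Insig1 stretch 1 and 3. The Idi1 stretch held no match, while the whole Idi1 window, which reaches past the gene start, held 2 CCAAT boxes and 1 GC box. Of all 32851 promoter windows 1.24% held TCACNCCAC, 37.4% CCAAT and 35.7% GGGCGG. Among the 5 genes with windows, the TCACNCCAC letters were found in Hmgcs1 alone. A match describes letters only, and no binding was measured here.

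On mm10, the table places Hmgcs1 (ENSMUSG00000093930) at chr13:119690379-119708260 and Idi1 (ENSMUSG00000058258) at chr13:8885501-8892451, both on the plus strand. Sqle (ENSMUSG00000022351) lies at chr15:59315077-59331192 and Srebf2 (ENSMUSG00000022463) at chr15:82147181-82205379, both plus, Dhcr7 (ENSMUSG00000058454) at chr7:143823145-143848410, plus, and Insig1 (ENSMUSG00000045294) at chr5:28071363-28078662, plus. Fdps (ENSMUSG00000059743) at chr3:89093588-89101959 and Fdft1 (ENSMUSG00000021273) at chr14:63145150-63179578 are on the minus strand. All 8 passed the filter on low counts.

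The libraries held 16198011 to 19196283 counts. Levels are CPM, counts scaled to a common library size with TMM factors, or RPKM, CPM per 1000 bases of gene length, where genes are compared with each other. Asxl1 was lower in all 5 Asxl1-/- and Asxl1-/-Jak2V617F libraries (89 to 100 CPM) than in the other 6 (132 to 196 CPM), and Jak2 was highest in Jak2V617F (121 to 129 CPM, against 71.7 to 103 CPM). Counts over whole genes cannot show the lesions themselves. The 3 Jak2V617F libraries stood apart from the other 8 along the leading principal component (98.5 to 105 against -47.3 to -17.8; 51.5% of the variance). Their summed level of 13 erythroid markers was 5450 to 6780 CPM against 1310 to 3140 CPM elsewhere, and that of 6 primary granule markers 694 to 1230 CPM against 10000 to 21300 CPM. No marker of either list was at 0 in any library. Their 6 dendritic cell and MHC class II markers summed to 2100 to 2890 CPM against 205 to 454 CPM, and 7 markers of cycling cells to 3790 to 3880 CPM against 3170 to 4030 CPM. In such bulk samples, fewer cells of a type and less RNA per cell cannot be told apart, and the part of cell composition in the results that follow was not tested.

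Per length, Srebf2 was the most abundant of the 8 genes, with a median of 19.5 RPKM over the 11 libraries (range 14.9 to 23.2). Insig1 (median 7.04 RPKM), Sqle (6.06), Dhcr7 (5.77), Hmgcs1 (5.73), Idi1 (5.16) and Fdft1 (4.52) followed, and the ranges of neighbours in this order overlapped. Fdps stood below all of them at 0.376 RPKM (range 0.110 to 0.951), with 8 to 71 counts per library. Sqle varied 3.19-fold between its lowest and highest library, Idi1 2.73-fold and Srebf2 1.55-fold.

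**Figure D1:**
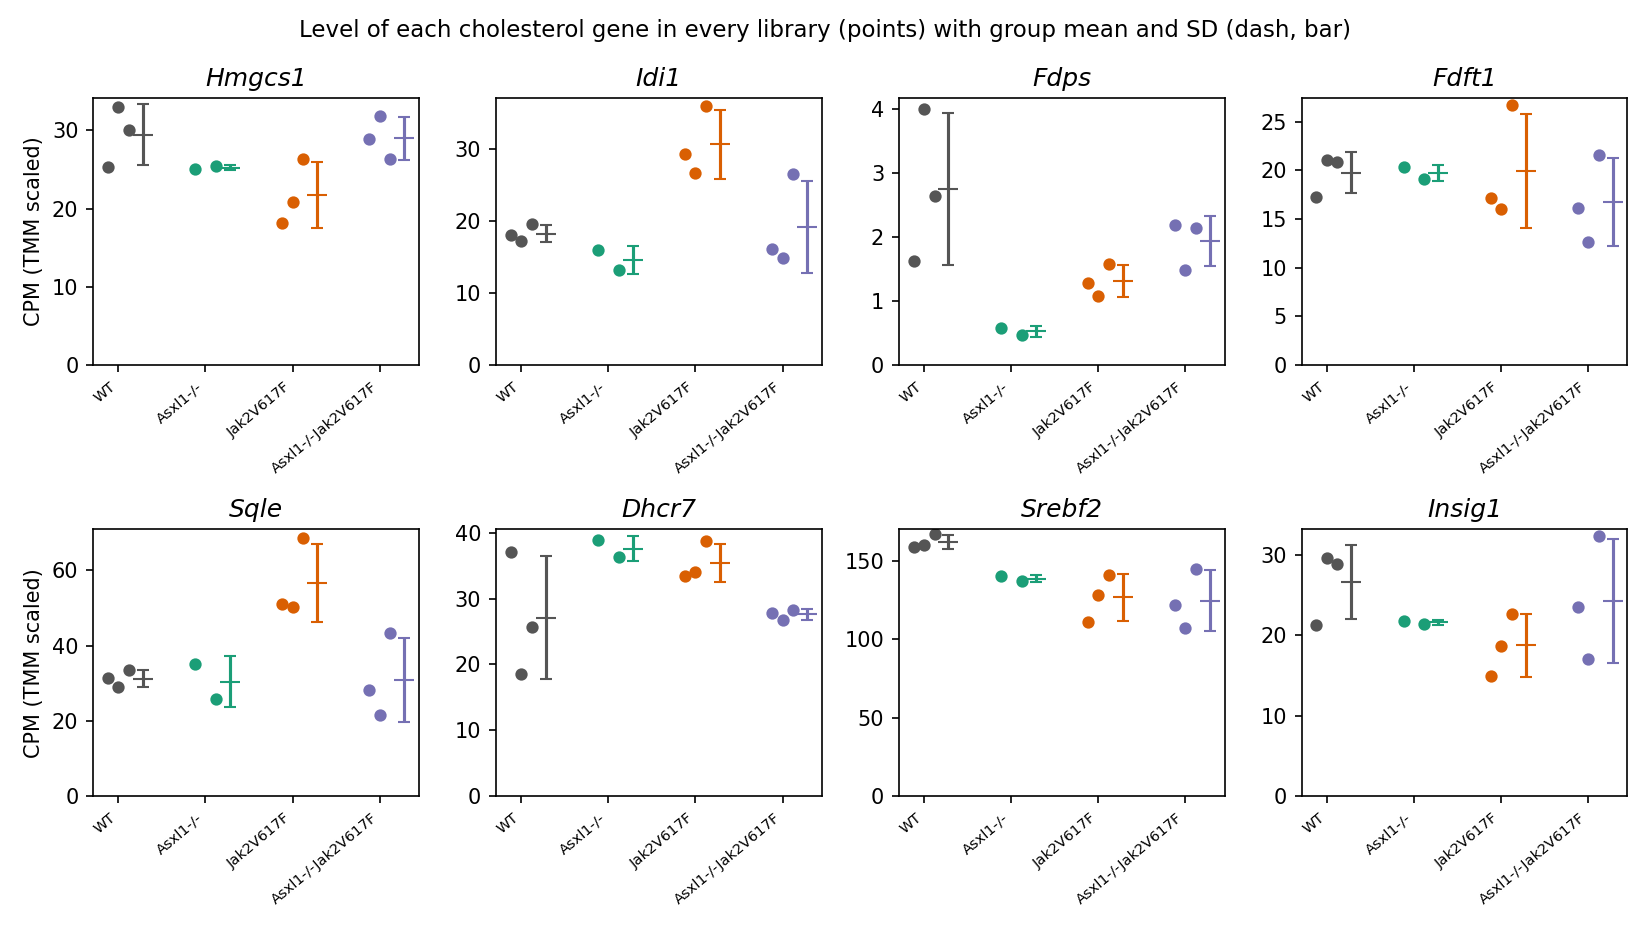
Level of each of the 8 genes (CPM, vertical axis from 0) in every library, with points for libraries and a dash and bar for the group mean and SD, by genotype. Sqle and Idi1 were highest in Jak2V617F, where all 3 libraries lay above every WT library, while the highest Srebf2 and Fdps means were in WT.

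The comparison of Jak2V617F with WT asks what the activated kinase alone changes. Sqle and Idi1 rose, Hmgcs1, Fdps and Srebf2 fell, and Fdft1, Dhcr7 and Insig1 did not pass. That is 5 of 8 genes called, beside 53.5% of all 16262 genes tested, and 4 of 8 whose groups did not overlap, beside 61% of all genes; both shares are near the background. The median log2 fold change of the 8 was -0.16 (all genes, -0.05). The falls were less stable than the rises. Without Jak2V617F 1, or without Jak2V617F 2, 2 of the 8 genes rose and 0 fell. Without WT 2, or without WT 3, 2 rose and 1 fell. Without Jak2V617F 3, 2 rose and 3 fell, and without WT 1, 3 rose and 2 fell.

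Sqle, squalene epoxidase, which oxidises squalene at a rate-limiting step, was at 51.2, 50.3 and 68.5 CPM in Jak2V617F and at 31.3, 28.9 and 33.6 CPM in WT. Every Jak2V617F library was above every WT library. By edgeR's quasi-likelihood test the log2 fold change was 0.86 ± 0.23 (SE), a 1.81-fold rise (adjusted p = 0.00976). Idi1, isopentenyl diphosphate isomerase, was at 29.4, 26.7 and 36.0 CPM against 18.1, 17.2 and 19.6 CPM, again without overlap. It rose 1.67-fold (log2 0.74 ± 0.20, edgeR adjusted p = 0.0091). The calls of both genes were kept under all 13 alternatives tried, with log2 values of 0.71 to 0.98 for Sqle and 0.62 to 0.88 for Idi1. These 2 genes also had the most similar profile of any pair among the 8, with centred log2 CPM differing by 0.11 on average over the 11 libraries.

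Hmgcs1, HMG-CoA synthase, was at 18.1, 20.9 and 26.4 CPM in Jak2V617F and at 25.3, 33.0 and 30.1 CPM in WT. The groups overlapped, in that Jak2V617F 3 lay above WT 1. It fell by 0.43 ± 0.15 on the log2 scale (edgeR adjusted p = 0.0284). Srebf2 was at 111, 128 and 141 CPM against 159, 160 and 167 CPM, with no overlap. It fell by 0.35 ± 0.11 (edgeR adjusted p = 0.0189). Both are small changes, 1.35-fold and 1.27-fold lower, and each call was lost in 4 of the 6 fits that left out 1 library of the groups compared (adjusted p up to 0.112 and 0.0858). For Hmgcs1 the 4 were those without Jak2V617F 1, Jak2V617F 2, WT 2 or WT 3, and for Srebf2 those without Jak2V617F 1, Jak2V617F 2, WT 1 or WT 3.

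Fdps, farnesyl diphosphate synthase, was at 1.29, 1.08 and 1.58 CPM in Jak2V617F and at 1.62, 4.00 and 2.65 CPM in WT. The highest Jak2V617F library and the lowest WT library nearly met. It fell by 1.06 ± 0.36 on the log2 scale (edgeR adjusted p = 0.0243), and by 0.70 without WT 2 (adjusted p = 0.136). Leaving out Jak2V617F 1 or Jak2V617F 2 ended the call as well (adjusted p = 0.0612 and 0.0912). Its counts are uncertain, because the span of another protein-coding gene model on the same strand, Gm43738, covers 89.7% of the Fdps span and was listed at 0 counts in every library. How the counting treated reads shared by gene models is not stated in the sources used here.

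Of the members that did not pass, Insig1 was at 14.9, 18.7 and 22.7 CPM in Jak2V617F and at 21.3, 29.6 and 28.9 CPM in WT (log2 -0.50 ± 0.23, edgeR adjusted p = 0.0828). Only Jak2V617F 3 reached into the WT range. Dhcr7, 7-dehydrocholesterol reductase, was at 33.5, 34.0 and 38.7 CPM against 37.0, 18.5 and 25.7 CPM (log2 0.39 ± 0.19, adjusted p = 0.109), and WT was the most scattered group. Without WT 1, Dhcr7 rose by 0.72 (adjusted p = 0.00163). Fdft1, squalene synthase, had almost the same mean in Jak2V617F (20.0 ± 5.87 CPM, SD, n = 3) and in WT (19.8 ± 2.10 CPM, n = 3). The end of Ctsb on the other strand, at 3611 to 16936 counts, overlaps the Fdft1 span by 774 bases, and without a stated strand setting reads of the pair cannot be told apart there.

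**Figure D2:**
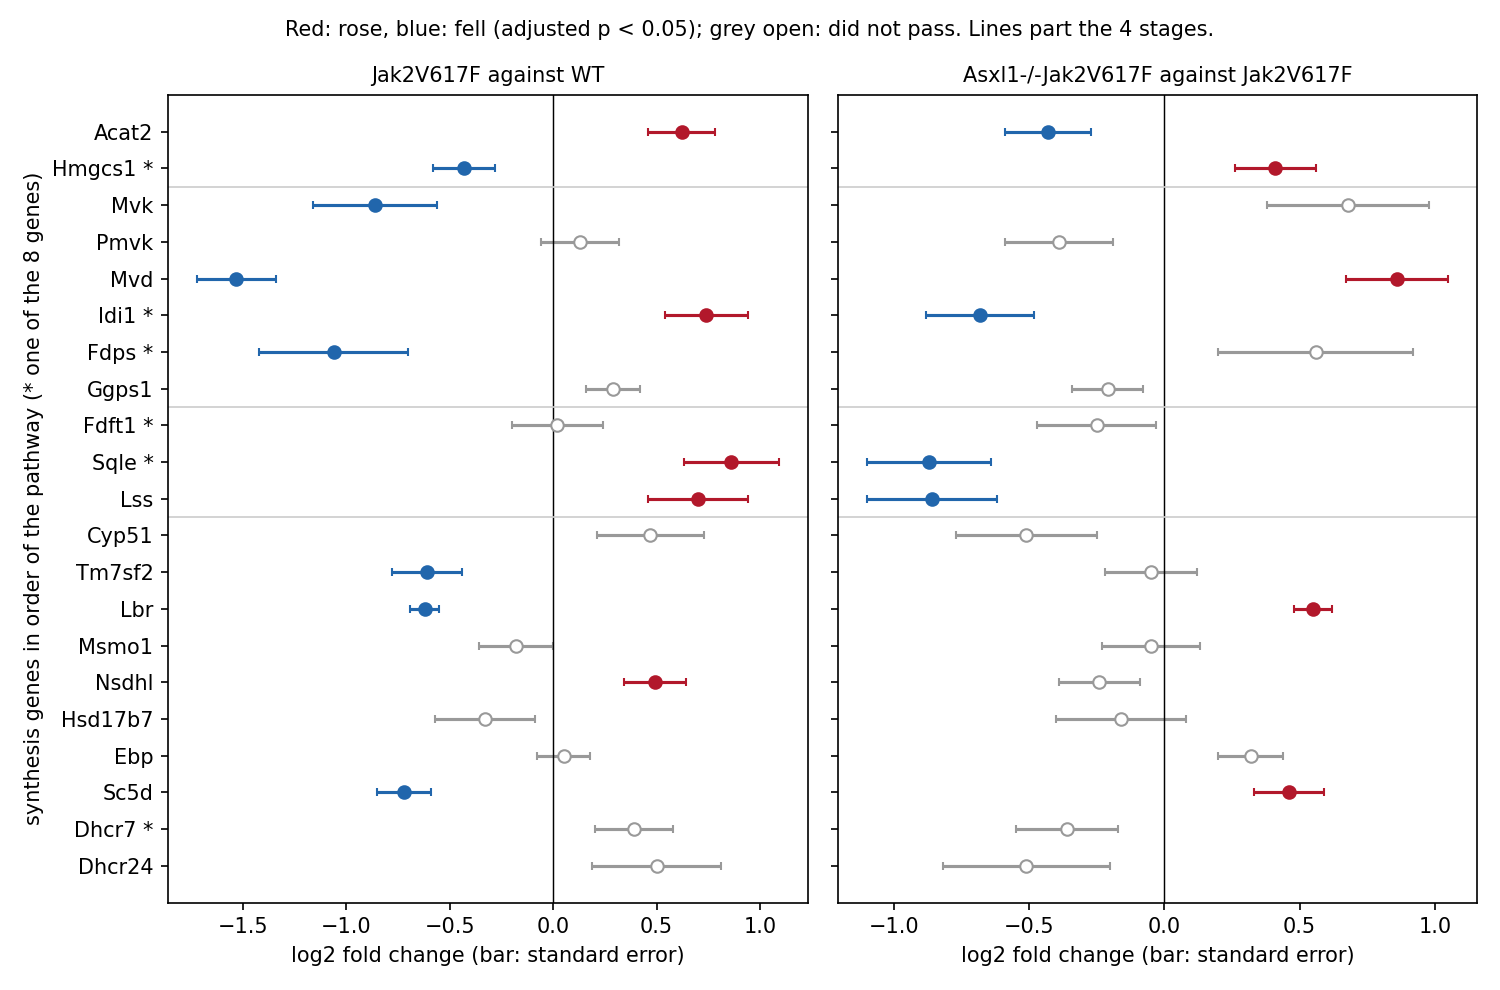
Log2 fold change (horizontal axis, with standard error) of 21 synthesis genes in pathway order from top to bottom, for Jak2V617F against WT and for Asxl1-/-Jak2V617F against Jak2V617F. Hmgcs1, Mvk and Mvd lie left of 0 and Acat2, Idi1, Sqle and Lss right of 0 in Jak2V617F against WT; both panels use the same Jak2V617F libraries.

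The other enzymes also went in both directions. Of 15 further synthesis genes, 3 rose and 5 fell in Jak2V617F against WT (median log2 0.05), where 24.4% of all genes rose and 29.2% fell, so these counts are near the background. Mvd, mevalonate diphosphate decarboxylase, fell from 30.0 ± 5.53 to 10.4 ± 0.495 CPM (n = 3 each), and the sterol reductase gene Lbr, whose product is also a nuclear lamin receptor, from 375 ± 2.62 to 244 ± 17.8 CPM. The desaturase gene Sc5d fell by 0.72 ± 0.13 on the log2 scale, and Mvk and Tm7sf2 fell as well. In the other direction, Lss, which closes the sterol rings right after Sqle, rose from 18.4 ± 0.859 to 29.9 ± 6.82 CPM, the thiolase gene Acat2 by 0.62 ± 0.16 and Nsdhl by 0.49 ± 0.15 on the log2 scale. By stage, the 3 squalene and lanosterol genes gave 2 rises and no fall, and the 6 genes between mevalonate and farnesyl diphosphate gave 1 rise and 3 falls. Across all 21 enzymes 5 rose, 7 fell and 9 did not pass.

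Most of the uptake genes tested fell in Jak2V617F, the genes of efflux and storage went both ways, and 6 of 11 fatty acid synthesis genes rose. Beside these counts, 24.4% of all genes rose and 29.2% fell in this comparison. Of 12 genes of lipoprotein uptake and lysosomal release, 9 fell and 1 rose (median log2 -0.58), among them Gramd1b, which moves sterol from the plasma membrane (-1.22 ± 0.12), the lipoprotein receptor gene Lrp8 (-0.68 ± 0.10) and the lysosomal sterol exporter gene Npc1 (-0.41 ± 0.11). In the list of LXR targets, efflux and storage 3 genes rose and 5 fell of 10 tested. Soat1, which esterifies cholesterol for storage, fell from 88.4 ± 11.6 to 22.6 ± 6.71 CPM, while the sterol transporter gene Abcg4 rose by 1.61 and Cyp27a1, which makes 27-hydroxycholesterol, by 1.96 on the log2 scale. Of 11 fatty acid synthesis genes 6 rose and 0 fell by edgeR (median log2 0.64; at an unadjusted p under 0.05, 7 and 1, and by DESeq2 7 and 0), including the fatty acid synthase gene Fasn (218 ± 30.6 to 375 ± 36.5 CPM), Acaca (0.64 ± 0.11), Acss2 (0.96 ± 0.16) and Srebf1, which encodes SREBP-1 (0.40 ± 0.13, adjusted p = 0.0228). Srebf1 and Srebf2 thus changed in opposite directions. Srebf1 is also among the 12 tested genes of SREBP processing, of which 4 rose and 2 fell, counts near the background. Insig2 did not pass (-0.26 ± 0.13, edgeR adjusted p = 0.113). These lists are mixtures of genes that several cell types use, and the same libraries had erythroid markers higher (12 of 13 rose) and primary granule markers lower (6 of 6 fell).

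**Figure D3:**
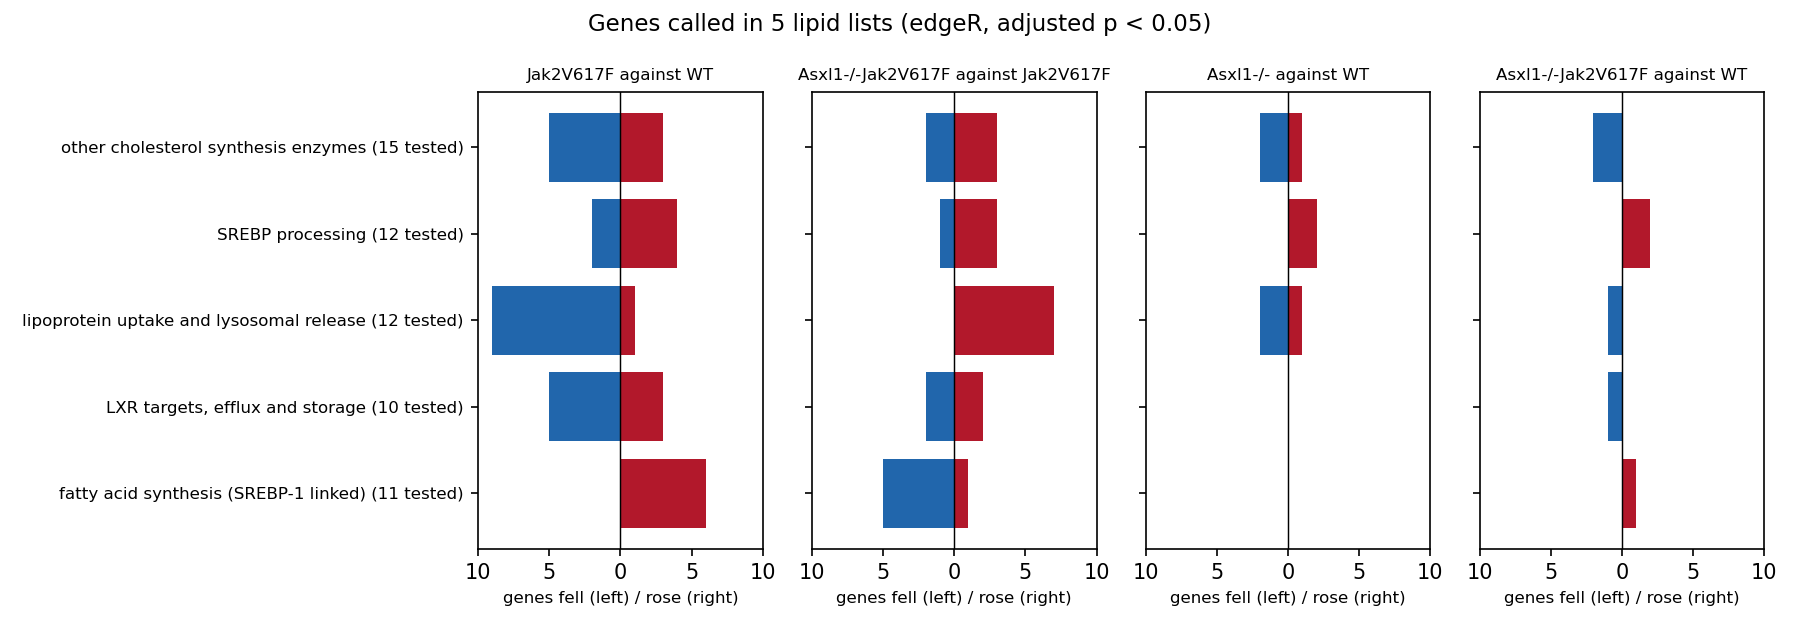
Number of genes that rose (right) or fell (left) in 5 lipid gene lists, by edgeR at an adjusted p under 0.05, in 4 comparisons. In Jak2V617F against WT 9 of 12 uptake genes fell, beside 29.2% of all genes, and 6 of 11 fatty acid genes rose, beside 24.4%. The comparisons of Asxl1-/- and of Asxl1-/-Jak2V617F with WT gave at most 2 genes in either direction in any list.

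The comparison of Asxl1-/-Jak2V617F with Jak2V617F asks what loss of Asxl1 does on the mutant kinase background. Sqle and Idi1 fell and Hmgcs1 rose, so 3 of 8 genes were called, beside 44.3% of all genes. Its reference, the Jak2V617F libraries, also entered the comparison with WT, and a sign that turns between the pair is partly built in by them. Sqle was at 28.2, 21.5 and 43.3 CPM in Asxl1-/-Jak2V617F, all below the lowest Jak2V617F library at 50.3 CPM. It fell by 0.87 ± 0.23 on the log2 scale (edgeR adjusted p = 0.0113), and the call was kept under all 13 alternatives. Idi1 was at 16.2, 14.9 and 26.6 CPM, with the highest of these just under the lowest Jak2V617F library at 26.7 CPM. It fell by 0.68 ± 0.20 (edgeR adjusted p = 0.0183). Hmgcs1 was at 28.9, 31.8 and 26.3 CPM against 18.1, 20.9 and 26.4 CPM, and rose by 0.41 ± 0.15 (edgeR adjusted p = 0.0424). The Idi1 call was lost without Asxl1-/-Jak2V617F 1, Asxl1-/-Jak2V617F 2 or Jak2V617F 3 (adjusted p = 0.0679 to 0.0723), and the Hmgcs1 call without Asxl1-/-Jak2V617F 1, Asxl1-/-Jak2V617F 2, Jak2V617F 1 or Jak2V617F 2 (0.0876 to 0.151). With only the compared groups fitted both missed (adjusted p = 0.0505 for Idi1 and 0.0661 for Hmgcs1), and Hmgcs1 also missed with median-of-ratios scaling (0.0539) and with a sex term (0.104).

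Srebf2 was at 122, 107 and 145 CPM in Asxl1-/-Jak2V617F, almost the same range as the 111 to 141 CPM of Jak2V617F (adjusted p = 0.87). Dhcr7 was at 27.8, 26.7 and 28.3 CPM, below all 3 Jak2V617F libraries, but did not pass (log2 -0.36 ± 0.19, edgeR adjusted p = 0.15). With only the compared groups fitted it fell by the same 0.36 (adjusted p = 0.0243). Insig1 ranged from 17.0 to 32.3 CPM and Fdft1 from 12.6 to 21.6 CPM, both overlapping Jak2V617F. Fdps was at 2.19, 1.49 and 2.14 CPM (log2 0.56 ± 0.36, adjusted p = 0.234). In all, 3 of the 8 genes had groups that did not overlap, beside 53.9% of all genes.

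Among the further synthesis genes 3 rose and 2 fell of 15, and Mvd (0.86 ± 0.19), Lbr (0.55 ± 0.07) and Sc5d (0.46 ± 0.13) were those that rose. Lss (-0.86 ± 0.24) and Acat2 (-0.43 ± 0.16) fell. Of 12 uptake genes 7 rose and 0 fell by edgeR (9 and 0 at an unadjusted p under 0.05, and 7 and 0 by DESeq2). Of 10 genes of LXR targets, efflux and storage 2 rose, among them Soat1 (1.91 ± 0.20), and 2 fell, Cyp27a1 and Abcg4. Of 11 fatty acid genes 5 fell and 1, the elongase gene Elovl5, rose; Fads1 fell by 1.03 ± 0.15 and Acss2 by 1.08 ± 0.16, while Srebf1 did not pass (-0.32 ± 0.13, adjusted p = 0.0627). Over all genes 24.5% rose and 19.8% fell. Here 12 of 13 erythroid markers fell and 6 of 6 primary granule markers rose. Asxl1-/-Jak2V617F 3, which had the highest Sqle and Idi1 of its group, also had its highest erythroid sum (3140 CPM against 1870 and 1820 CPM) and its lowest primary granule sum (11500 CPM against 21300 and 19800 CPM). Jak2V617F 3 likewise had the highest Sqle and Idi1 of its group (68.5 and 36 CPM) but its lowest erythroid sum (5450 CPM against 6190 and 6780 CPM). A link of these levels to cell composition was not tested.

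The comparison of Asxl1-/- with WT asks what Asxl1 loss does alone. In it 1 of 8 genes was called, Fdps, beside 22.5% of all genes, and 3 of 8 did not overlap, beside 57.2%. Fdps was at 0.583 and 0.465 CPM, from 10 and 8 counts, and fell by 2.38 ± 0.46 on the log2 scale (edgeR adjusted p = 0.00585). Both libraries were below every other library of the study. The call was lost without Asxl1-/- 1 (log2 -2.54) or Asxl1-/- 2 (log2 -2.22), fits that leave a single library in that group. With a term for sex the call was lost as well (log2 -1.97, edgeR adjusted p = 0.127). That term also took the calls over all genes from 3664 to 502. Both Asxl1-/- libraries carried reads on Y-linked genes and no WT library did, so sex and genotype cannot be told apart in this comparison. Sqle was at 35.2 and 25.7 CPM and Hmgcs1 at 25.0 and 25.5 CPM, on either side of the WT range for Sqle and at its lower end for Hmgcs1. Idi1 (16 and 13.2 CPM; log2 -0.33 ± 0.23, adjusted p = 0.334) and Srebf2 (140 and 137 CPM) lay under all WT libraries without passing. Dhcr7 was at 38.9 and 36.3 CPM (log2 0.47 ± 0.21, adjusted p = 0.13), and rose by 0.80 without WT 1 (adjusted p = 0.00498). Insig1 was at 21.8 and 21.4 CPM (log2 -0.30 ± 0.26, adjusted p = 0.424) and Fdft1 at 20.3 and 19.1 CPM. Of the 15 further enzymes 1 rose, the isomerase gene Ebp (0.45 ± 0.14), and 2 fell, Mvd (-1.09 ± 0.21) and Tm7sf2 (-0.64 ± 0.19). Of 11 fatty acid genes 0 were called by edgeR or DESeq2, and 1 rose at an unadjusted edgeR p under 0.05. Beside these, 11.3% of all genes rose and 11.2% fell.

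In Asxl1-/-Jak2V617F against WT, which sets cells with both lesions beside cells with neither, 1 of 8 genes was called, Srebf2, beside 15.1% of all genes (8.3% rose and 6.76% fell). It was also the 1 gene of 8 whose groups did not overlap, beside 36.5% of all genes. Its 122, 107 and 145 CPM were all under the 159 CPM of the lowest WT library. It fell by 0.38 ± 0.11 (edgeR adjusted p = 0.042), a call lost under 8 of 13 alternatives, 5 of them leaving out a library (Asxl1-/-Jak2V617F 1 or 2, or any WT library; adjusted p = 0.0667 to 0.174). Mean Sqle (31.0 ± 11.2 against 31.3 ± 2.36 CPM), Idi1 (19.2 ± 6.41 against 18.3 ± 1.22 CPM) and Hmgcs1 (29.0 ± 2.71 against 29.4 ± 3.88 CPM, SD, n = 3 each) were close to WT. The Sqle difference in log2, -0.01 ± 0.23, had an error wide enough that a modest change could not be seen. Fdps did not pass either (-0.51 ± 0.35, adjusted p = 0.329). Of 15 further enzymes 2 fell, Mvd (-0.67 ± 0.18) and Tm7sf2 (-0.66 ± 0.17), while Scap, the SREBP escort, rose by 0.37 ± 0.11 and Fasn by 0.52 ± 0.12.

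In Asxl1-/-Jak2V617F against Asxl1-/-, 1 of 8 genes was called, again Fdps, beside 5.53% of all genes (3.31% rose and 2.22% fell), and 3 of 8 did not overlap, beside 43.8%. It rose by 1.87 ± 0.46 on the log2 scale (edgeR adjusted p = 0.0367) from the few reads of the Asxl1-/- libraries. The call was lost without Asxl1-/-Jak2V617F 1, 2 or 3 (edgeR adjusted p = 0.0576 to 0.0831). It was also lost without Asxl1-/- 1 (log2 2.04) or Asxl1-/- 2 (log2 1.72), fits that leave a single library in that group. With a sex term the Fdps value was 1.46 (edgeR adjusted p = 0.45), and the calls over all genes went from 899 to 52. Both Asxl1-/- libraries carried Y-linked reads and no Asxl1-/-Jak2V617F library did. Sex and genotype thus cannot be told apart in this comparison either. Dhcr7 was lower without overlap but did not pass (-0.45 ± 0.21, adjusted p = 0.251), and Idi1 was 0.40 ± 0.23 (adjusted p = 0.355). Of the 15 further enzymes 0 were called by edgeR or DESeq2, and 0 had an unadjusted edgeR p under 0.05.

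The interaction compares Asxl1 loss on the Jak2V617F background with Asxl1 loss on the WT background. By edgeR it was called for 3 of 8 genes, beside 41.6% of all genes (23.7% positive and 17.9% negative): positive for Fdps (2.94 ± 0.58, adjusted p = 0.00225) and Hmgcs1 (0.63 ± 0.22, adjusted p = 0.0409), and negative for Dhcr7 (-0.84 ± 0.29, adjusted p = 0.0363). The log2 difference of Hmgcs1 with Asxl1 loss was 0.41 on the Jak2V617F background and -0.22 on the WT background, where it did not pass. For Dhcr7 the values were -0.36 and 0.47, and neither passed alone. Sqle had as large a value as Dhcr7 (-0.83 ± 0.35) but did not pass (adjusted p = 0.0785), and it passed with DESeq2 (-0.87, adjusted p = 0.0367). Insig1 (0.67 ± 0.34, adjusted p = 0.138) and Idi1 (-0.35 ± 0.31, adjusted p = 0.385) did not pass. Of the further enzymes Mvd (1.94 ± 0.28), Lbr (0.51 ± 0.11) and Sc5d (0.72 ± 0.19) were called, all positive. Of 11 fits that left out a library, the Hmgcs1 call was lost in 8 (all but those without Asxl1-/-Jak2V617F 3, Jak2V617F 3 or WT 1) and the Dhcr7 call in 7 (all but those without Jak2V617F 1, Jak2V617F 2, WT 1 or WT 2), with the sign kept in each.

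In 3 of the 4 genotypes most of the 8 genes shared their highest library. Jak2V617F 3 was the highest of its group for 8 of 8 genes and for 12 of 15 further enzymes, where 31.6% of all genes had their highest value. Asxl1-/-Jak2V617F 3 was the highest of its group for 6 of 8 genes and Asxl1-/-Jak2V617F 2 the lowest for 7 of 8, beside 39.3% and 27.5% of all genes; for the further enzymes these were 9 and 9 of 15. In Asxl1-/-, replicate 1 was the higher for 7 of 8 genes and 9 of 15 further enzymes, beside 49.3% of all genes. In WT no library was the highest for most genes, with 1, 4 and 3 of the 8 genes highest in replicates 1, 2 and 3. WT 1 was the lowest for 5 of 8 genes, beside 35.8% of all genes, and for 3 of 15 further enzymes. Jak2V617F 3 had the lowest late neutrophil sum of its group (1830 CPM against 4400 and 4890 CPM) and the lowest erythroid sum.

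**Figure D4:**
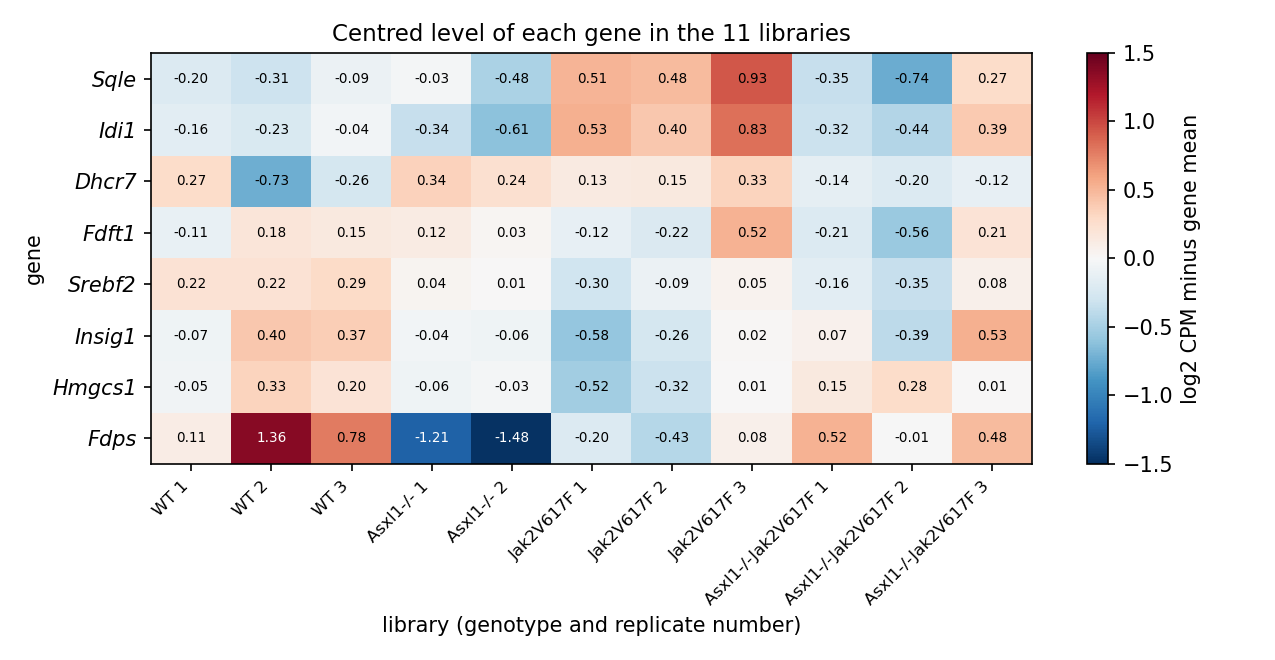
Log2 CPM of the 8 genes (rows) in the 11 libraries (columns), each gene centred on its mean, in colour and as numbers. Sqle and Idi1 are above their means in all 3 Jak2V617F libraries and in Asxl1-/-Jak2V617F 3, and Fdps is lowest in the 2 Asxl1-/- libraries (-1.21 and -1.48).

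The 8 genes differed in how close their profiles lay to each other. The measure, a mean absolute difference, grows with the range and counting noise of a gene, and Fdps had only 8 to 71 counts. It does not by itself show shared or separate control. Sqle and Idi1 differed from each other by 0.11 in centred log2 CPM on average, Hmgcs1 and Insig1 by 0.15, and Fdft1 and Srebf2 by 0.16, whereas Hmgcs1 and Sqle differed by 0.55 and Fdps and Sqle by 0.85. By the same measure, over 9963 other protein-coding genes with a mean of at least 5 CPM, the gene nearest to Sqle was Scrn3 (0.095), that nearest to Idi1 was Ssx2ip (0.113), that nearest to Hmgcs1 was Gorab (0.056) and that nearest to Srebf2 was Spice1 (0.067). For Insig1 it was Commd6 (0.133), for Dhcr7 Abhd17a (0.097), for Fdft1 Cep57l1 (0.12) and for Fdps 1700109H08Rik (0.335). The 8 genes themselves were not candidates in that search, and the Idi1 to Sqle difference of 0.11 is about as small as the nearest values found for these 2 genes.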

How the data were processed

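Only RNA-seq was analysed here; accessibility and histone mark samples were not used. The authors deposited a table of unnormalised read counts for Ensembl genes, per the file headers, with 1 column for each library. HISAT2 2.0.5, featureCounts 1.5.0-p3 and DESeq2 1.16.1 appear in the submitters' processing notes, with mm10 as the build and no roles. Strand setting, multi-mapping reads and annotation release are not stated in the sources used here. Gene lengths are those of the deposited table.

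Genes were filtered with filterByExpr by group, leaving 16262, scaled by TMM and tested in R 4.3.3 with edgeR 4.0.16 (robust quasi-likelihood) in 1 fit of all 11 libraries by genotype. P-values were adjusted by Benjamini-Hochberg across the 16262 genes, and a call needed an adjusted p under 0.05; SE is the absolute log2 fold change over the square root of F. The 8 genes and all lists were chosen with earlier results of these data known, so lists carry counts and medians only, with no list test. Named genes are the 8, Srebf1, Insig2, up to 4 genes a list and comparison, by lowest adjusted p, and the nearest by mean absolute difference of centred log2 CPM (prior count 2); Lss, Mvk, Tm7sf2, Nsdhl and Npc1 in Jak2V617F against WT and Acat2 in Asxl1-/-Jak2V617F against Jak2V617F were added after their values were seen, as were the pathway stages and the tally of highest and lowest libraries. Some genes of the lists are not reported here and stay out of every list count; Spring1 was not found by that symbol. Between replicates, chi-square per degree of freedom was 7.75 to 33.1, so no pair looked like 1 library deposited again; this does not show separate animals. As alternatives, median-of-ratios scaling, DESeq2 1.42.0, a fit of the compared groups alone, either no filter or 1 CPM in 3 libraries, a replicate block, a sex term and the omission of each library were run.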

Additional observations from a re-analysis of the deposited data

Results flagged for a closer look

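The 3 interaction values that follow are flagged because edgeR's interaction test called them, as it did 41.6% of all genes. Each is the log2 value for Asxl1 loss on the Jak2V617F background minus that on the WT background. The difference was 0.63 on the log2 scale for Hmgcs1, 2.94 for Fdps and -0.84 for Dhcr7. That for Fdps rests on the 10 and 8 counts of the 2 Asxl1-/- libraries, and that for Dhcr7 on a WT group that ranged from 18.5 to 37.0 CPM. With a sex term none of the 3 passed (edgeR adjusted p = 0.37, 0.103 and 0.204). Y-linked reads were found only in both Asxl1-/- libraries and in Jak2V617F 2. Sex thus varied within Jak2V617F alone, and the term rests on Jak2V617F 2 against Jak2V617F 1 and 3. Within Asxl1-/- sex and genotype cannot be told apart. Groups of 2 or 3 libraries are too small to look for single outlying libraries.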

How the results depend on the processing

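Of 48 values (8 genes in 5 comparisons and the interaction), 28 were called or at least 0.3 in log2, and none of these changed sign in 381 refits. The other 20 (a limit chosen after the values were seen), given mostly as levels, changed sign in 41 of 259 refits and were never called. The number of genes called moved by more than 1.5 times in these cases. With only the compared groups fitted, it was 3 in Jak2V617F against WT and 0 in Asxl1-/-Jak2V617F against WT. With the stricter filter it was 0 in Asxl1-/-Jak2V617F against WT. With a sex term it was 3 in Jak2V617F against WT and 0 in Asxl1-/- against WT, Asxl1-/-Jak2V617F against WT, Asxl1-/-Jak2V617F against Asxl1-/- and the interaction. With the replicate block it was 0 in Asxl1-/-Jak2V617F against Asxl1-/-. At an unadjusted p under 0.05 edgeR gave 1 gene in each of these counts of 0, except 0 for Asxl1-/-Jak2V617F against Asxl1-/- with the sex term and 3 with the block, and DESeq2 called 1 gene, or 4 in the interaction. Leaving out 1 library gave 1 to 3 genes in Asxl1-/-Jak2V617F against Jak2V617F, 2 to 5 in Jak2V617F against WT, 0 to 2 in Asxl1-/- against WT, 0 to 1 in Asxl1-/-Jak2V617F against WT, 0 in Asxl1-/-Jak2V617F against Asxl1-/-, and 1 to 4 in the interaction. The cause was not tested; fewer libraries also leave fewer degrees of freedom. Replicate numbers are shared between genotypes by title only: deviations of same-numbered libraries had a median correlation of 0.02 (-0.20 to 0.17), so they were not treated as pairs, and the replicate block gave 3, 6, 1, 1 and 4 genes in the other comparisons in the order above. The block added Insig1 in Jak2V617F against WT (-0.52, adjusted p = 0.0345) and Sqle in the interaction (-1.01, adjusted p = 0.0059), and lost Fdps in Asxl1-/-Jak2V617F against Asxl1-/- (1.81, adjusted p = 0.0812), all by edgeR. Fdps had only 8 to 71 counts per library, and whether depth or the assignment of reads limits it was not tested.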
